A study of Mus musculus with 4 samples.

Results

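The interleukin 1 (IL-1) system and its inflammasome were followed through the brain vascular-associated cells (BVACs) of stressed and unstressed mice. The 9 genes, of 31053 genes in the matrices, were taken by symbol: the ligands Il1a, Il1b and Il18, the antagonist Il1rn, the receptor chains Il1r1 and Il1rap, the decoy receptor Il1r2, and the inflammasome genes Nlrp3 and Casp1. BVACs had been isolated with magnetic beads against CD31, an endothelial surface protein, followed by mechanical dissociation and collagenase II, from the brains of male wild-type C57BL/6 mice aged 12 to 14 weeks, without the cerebellum, striatum, brainstem and olfactory bulbs. Mice of the chronic social defeat (CSD) group lived for 14 days in the cage of an aggressive CD-1 mouse, behind a partition that was taken out for 5 minutes a day. Home cage (HC) mice also lived beside a CD-1 mouse for 14 days, but with a partition that stayed in place throughout. Each library pooled 4 mice, which gives 2 CSD libraries (CSD 1 and CSD 2) and 2 HC libraries (HC 1 and HC 2), and single mice cannot be told apart. Bead enrichment also carried over microglia, choroid plexus cells and other neighbours of vessels, so the numbers of cells do not give their proportions in the brain.

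IL-1α and IL-1β act through the same receptor, a complex of the IL-1R1 chain with the accessory protein IL-1RAP, which signals through MyD88 and IRAK kinases to NF-κB. IL-1α is active as the full-length protein, whereas IL-1β and IL-18 are made as inactive precursors that caspase-1 cuts after an inflammasome such as that of NLRP3 has assembled. IL-1RA, the product of Il1rn, occupies IL-1R1 without signalling, and IL-1R2 binds the ligand without a signalling domain. In the brain, microglia are the best-known source of IL-1, and endothelial cells (EC) are a well-known target, where the cytokine induces adhesion molecules, chemokines and cyclooxygenase 2.

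Cells were the barcodes with at least 500 UMIs, at least 250 genes and at most 25% mitochondrial UMIs, which gave 4079 cells in CSD 1, 2553 in CSD 2, 2849 in HC 1 and 4934 in HC 2. The libraries held 27297599 to 30361474 UMIs over all barcodes, the median cell held 1408 to 2357 UMIs, and pairs of libraries shared 0 to 9 cell barcodes. Of 14415 cells, 12400 were placed in a class by at least 3 distinct marker genes, none of them among the 9 genes, while 1384 carried the markers of more than 1 class and were set aside as mixed, and 631 had no class. All 9 endothelial cell markers were detected in EC, at a summed 21084 to 24724 CPM per library (UMIs per 1000000 UMIs of that class), and all 8 microglial markers in microglia, at 13887 to 16066 CPM. Those 8 markers summed to 86.9 to 153 CPM in EC. Microglia of CSD 2 stood apart in depth, with a median of 5022 UMIs per cell against 1864 to 2739 in the other libraries. Shares of positive cells were therefore compared after thinning each cell of at least 1000 UMIs to 1000 UMIs, and shallower cells were left out. In EC this kept 681 of 1121 cells in CSD 1, 723 of 1119 in CSD 2, 613 of 898 in HC 1 and 601 of 1678 in HC 2. Shares without thinning are over all cells of a class. In a pool of cells, fewer producing cells and less RNA per cell cannot be told apart from a summed level.

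Per the GENCODE annotation of GRCm38, Il1a lies on the minus strand at chr2:129299610-129309972 and Il1b, also on the minus strand, at chr2:129364570-129371139. Both have exons that overlap an antisense transcript, Gm14023 for Il1a and Il1bos for Il1b. Nlrp3 lies on the plus strand at chr11:59541568-59566956 with no overlapping gene, and Il1r1 on the plus strand at chr1:40225080-40317257. The 300 bases around the RefSeq start sites of these genes (250 before the start and 50 after it) are printed because the results turn on the microglial levels of Il1a, Il1b and Nlrp3 and the venous level of Il1r1. Capitals mark a match, on either strand, to the NF-κB consensus, to the PU.1 core GAGGAAG (PU.1 is a lineage factor of myeloid cells), to the AP-1 site TGANTCA or to the C/EBP letters TTGCNNAA. Of 32851 promoters of the same length, 8.46% held an NF-κB match, 13.6% a PU.1 match, 7.81% an AP-1 match and 10.8% a C/EBP match.
Il1a, chr2:129309923-129310222, minus strand: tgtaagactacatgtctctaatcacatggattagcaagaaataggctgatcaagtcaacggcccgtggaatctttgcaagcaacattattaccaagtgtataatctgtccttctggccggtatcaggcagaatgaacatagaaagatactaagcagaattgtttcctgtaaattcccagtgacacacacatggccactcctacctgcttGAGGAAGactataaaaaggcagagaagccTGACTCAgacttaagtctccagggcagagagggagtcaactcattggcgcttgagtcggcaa
Il1b, chr2:129371090-129371389, minus strand: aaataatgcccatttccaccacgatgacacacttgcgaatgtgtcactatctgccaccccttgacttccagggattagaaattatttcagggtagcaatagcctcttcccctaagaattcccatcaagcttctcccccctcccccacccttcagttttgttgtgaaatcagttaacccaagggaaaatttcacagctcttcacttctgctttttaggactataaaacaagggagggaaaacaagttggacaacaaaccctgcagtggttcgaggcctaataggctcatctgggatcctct
Nlrp3, first start, chr11:59541319-59541618, plus strand: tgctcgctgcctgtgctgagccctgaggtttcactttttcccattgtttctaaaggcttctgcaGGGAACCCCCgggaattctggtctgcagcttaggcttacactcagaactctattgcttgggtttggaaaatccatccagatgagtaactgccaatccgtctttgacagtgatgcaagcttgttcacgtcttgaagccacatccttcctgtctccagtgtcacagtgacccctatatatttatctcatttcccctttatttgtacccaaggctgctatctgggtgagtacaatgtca
Nlrp3, second start, chr11:59542436-59542735, plus strand: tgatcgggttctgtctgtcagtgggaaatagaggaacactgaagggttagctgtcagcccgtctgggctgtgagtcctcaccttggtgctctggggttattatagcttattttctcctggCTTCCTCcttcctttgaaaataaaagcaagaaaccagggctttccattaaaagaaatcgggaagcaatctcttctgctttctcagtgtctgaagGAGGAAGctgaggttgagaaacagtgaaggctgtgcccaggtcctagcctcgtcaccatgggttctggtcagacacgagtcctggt
Il1r1, first start, chr1:40224830-40225129, plus strand: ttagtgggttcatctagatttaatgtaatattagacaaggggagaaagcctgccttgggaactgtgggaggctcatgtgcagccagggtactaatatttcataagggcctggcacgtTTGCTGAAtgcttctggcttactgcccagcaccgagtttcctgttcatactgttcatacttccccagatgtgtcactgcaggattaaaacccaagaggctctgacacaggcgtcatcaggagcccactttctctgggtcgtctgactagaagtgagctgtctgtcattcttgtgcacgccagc
Il1r1, second start, chr1:40266336-40266635, plus strand: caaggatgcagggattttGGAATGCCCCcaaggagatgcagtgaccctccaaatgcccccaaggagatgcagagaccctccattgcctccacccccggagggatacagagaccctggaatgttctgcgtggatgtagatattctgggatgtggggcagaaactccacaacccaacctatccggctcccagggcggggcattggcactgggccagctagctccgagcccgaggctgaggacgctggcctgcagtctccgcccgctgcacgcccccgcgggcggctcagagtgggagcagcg
In these windows Il1a had 1 PU.1 and 1 AP-1 match, and Il1b had no match to any of the 4 motifs. For Nlrp3, the first start had 1 NF-κB match and the second had 2 PU.1 matches. The first Il1r1 start had 1 C/EBP match and the second 1 NF-κB match, and since the libraries read only the 3′ ends of transcripts, the counts do not tell which start was used. A match is a description of the letters and not a bound site.

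Il1a was mainly a microglial transcript. Of its 8652 UMIs in cells, 94.9% lay in microglia, 4.18% in mixed cells and 0.254% in EC. In microglia its level was 683 CPM in CSD 1, 800 CPM in CSD 2, 783 CPM in HC 1 and 843 CPM in HC 2. The groups overlapped, with CSD 2 above HC 1, and the difference was small beside its error (log2 fold change of CSD over HC -0.09, SE 0.29, edgeR adjusted p = 1.0, n = 2 libraries per group). At 1000 UMIs per cell, 38.8% of microglia in CSD 1, 41.5% in CSD 2, 42.1% in HC 1 and 44.0% in HC 2 held an Il1a UMI, and without thinning 49.3%, 63.3%, 56.1% and 57.0% did. After thinning, the shares of the CSD libraries were below those of the HC libraries without overlap, by 2.90 percentage points on average, with an exact two-sided permutation p of 0.333, the smallest that 2 libraries against 2 can give. Without thinning the shares overlapped, and over the alternatives the CSD minus HC difference ranged from -4.27 to -0.225 points. In EC, which should lack the gene, 0.272% of thinned cells held a UMI. Median depths over all EC, with those too shallow to be thinned, were 858 to 1460 UMIs per cell. Against EC the microglial level was higher by 8.32 on the log2 scale (SE 0.30, edgeR with library as a block, adjusted p = 6.51e-11), in a contrast in which 65.6% of 10384 genes differed.

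**Figure D1:**
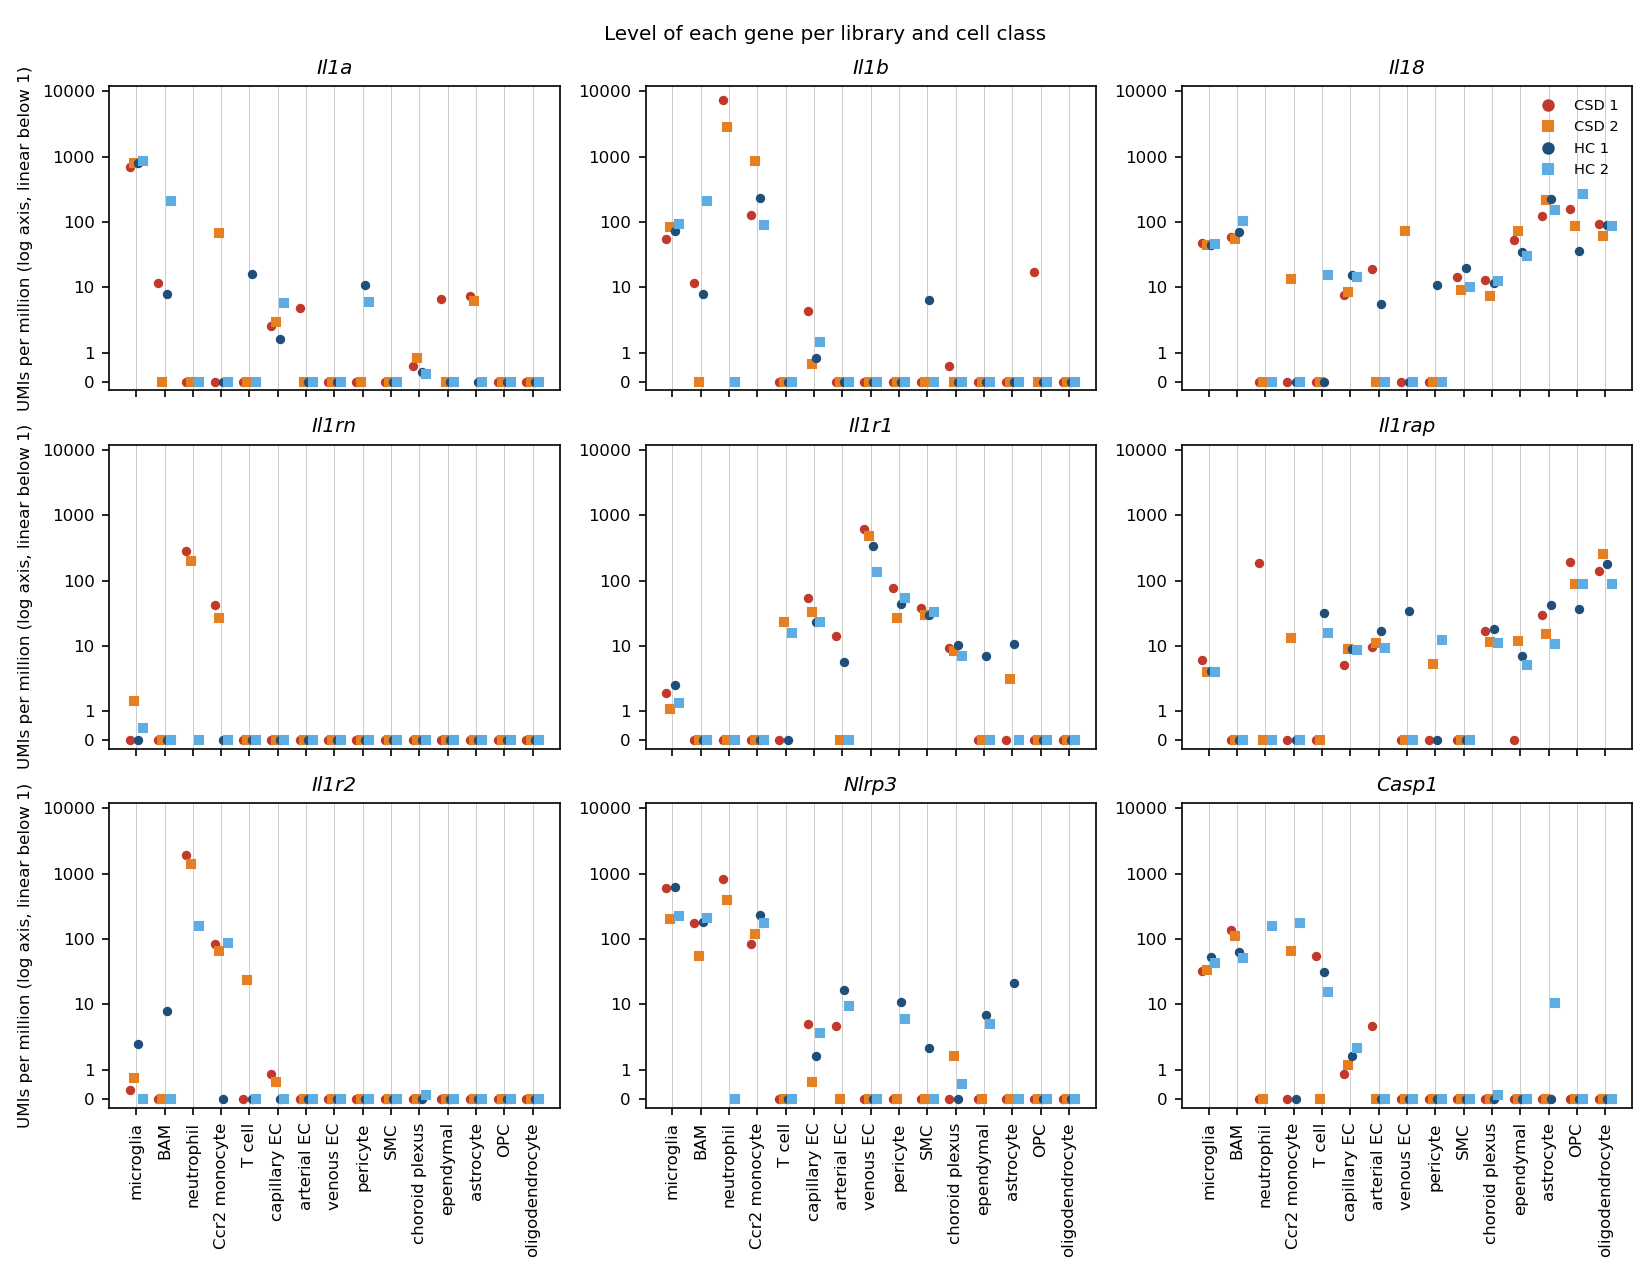
Level of each of the 9 genes (CPM, log axis that is linear below 1) in 15 cell classes, with 1 point per library (red and orange for CSD 1 and CSD 2, dark and light blue for HC 1 and HC 2). Il1a is highest in microglia, Nlrp3 and Casp1 are highest in microglia and other myeloid classes, Il1r1 in venous EC at 134 to 609 CPM, and Il1r2 and Il1rn in the few neutrophils and Ccr2 monocytes.

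Border-associated macrophages (BAM), the resident macrophages of perivascular spaces and meninges, were myeloid cells nearly without Il1a. The 107 BAM held 6 Il1a UMIs, of which 4 came from 1 cell of HC 2, and the level was lower than in microglia by 4.98 on the log2 scale (SE 0.55, adjusted p = 7.87e-18, with 11.9% of 7879 genes called in that contrast). This call held in each alternative that was run, with values between -7.71 and -4.44. CSD 2 gave only 5 BAM, so BAM were not compared between CSD and HC, and the contrast with microglia includes that sum (-4.78 without CSD 2). Il1b in BAM also rested on 6 UMIs, 4 of them from 1 HC 2 cell, and its contrast with microglia did not pass the threshold (log2 fold change -1.61, SE 0.61, adjusted p = 0.063).

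Il1b, the ligand that needs caspase-1, was shared between microglia and blood-borne myeloid cells. Microglia held 76.5% of its 1048 UMIs in cells, and 16 neutrophils and 20 Ccr2 monocytes (monocyte-derived cells, named for the chemokine receptor Ccr2) held 8.78% and 6.68%. In microglia the level was 55.2 CPM in CSD 1, 84.7 in CSD 2, 73.1 in HC 1 and 93.8 in HC 2. The groups overlapped and did not separate beyond their spread (log2 fold change -0.21, SE 0.32, adjusted p = 1.0). The thinned share of positive microglia was 3.68% in CSD 1, 4.95% in CSD 2, 4.72% in HC 1 and 5.98% in HC 2, against a mean of 0.0783% in EC.

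Neutrophils held the highest level of Il1b, in very few cells. There were 12 in CSD 1, 2 in CSD 2, 0 in HC 1 and 2 in HC 2. In CSD 1, 11 of the 12 neutrophils held 78 Il1b UMIs in all, at 7263 CPM, a positive share of 91.7% (exact 95% interval 61.5 to 99.8%). In CSD 2 both neutrophils were positive with 14 UMIs at 2798 CPM, and in HC 2 neither held one, which with 2 cells allows a share of up to 84.2%. The exact intervals cover counting error only, and with this number of cells no comparison of CSD with HC was made. The class was named from 9 markers, and its 8 microglial markers summed to 93.1 CPM in CSD 1 and 0 CPM in CSD 2.

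Among Ccr2 monocytes, 7 of 9 cells in CSD 2 held 65 Il1b UMIs (865 CPM). CSD 1 had 3 UMIs in 7 cells, HC 1 had 1 UMI in 1 cell and HC 2 had 1 UMI in 3 cells. The level in this class therefore rested on CSD 2. Monocyte and neutrophil markers in microglia summed to at most 12.7 and 124 CPM per library, and the part of such cells in the microglial Il1b level was not tested.

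Microglia with the most chemokine RNA had higher levels of Il1a and Il1b than those with none, in every library. When thinned microglia were grouped by their UMIs of Ccl3 plus Ccl4, chemokines of activated microglia, the Il1a level in cells with none was 399 CPM in CSD 1, 480 in CSD 2, 411 in HC 1 and 585 in HC 2. In cells with 10 or more it was 880, 838, 1012 and 1072 CPM, in the same order. For Il1b the levels were 22.0, 81.9, 19.0 and 41.5 CPM in cells with none against 92.2, 135, 129 and 126 CPM in cells with 10 or more. The levels of the end bins were therefore ordered the same way in all 4 libraries for both ligands. CSD 2 was not monotonic for either ligand, and Il1b in HC 2 was highest at 3 to 9 UMIs. The share of Il1b-positive cells did not rise in CSD 2, at 4.09% of 171 cells with none and 4.05% of 74 cells with 10 or more. In CSD 1, HC 1 and HC 2 this share was higher with 10 or more than with none. The cells of a library are not replicates, and no test was run on these bins. Cells with 16 or more UMIs of immediate-early and dissociation genes were 82.8%, 76.8%, 82.5% and 76.4% of thinned microglia, in the same order. Il1a was at 657, 794, 798 and 855 CPM in them, and at 872, 746, 968 and 887 CPM with 8 to 15 UMIs. In the 12, 41, 19 and 9 cells with 0 to 2 it was 0, 0, 52.6 and 222 CPM. The paper allows that isolation may alter transcription, and the part of isolation in these levels was not tested.

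**Figure D2:**
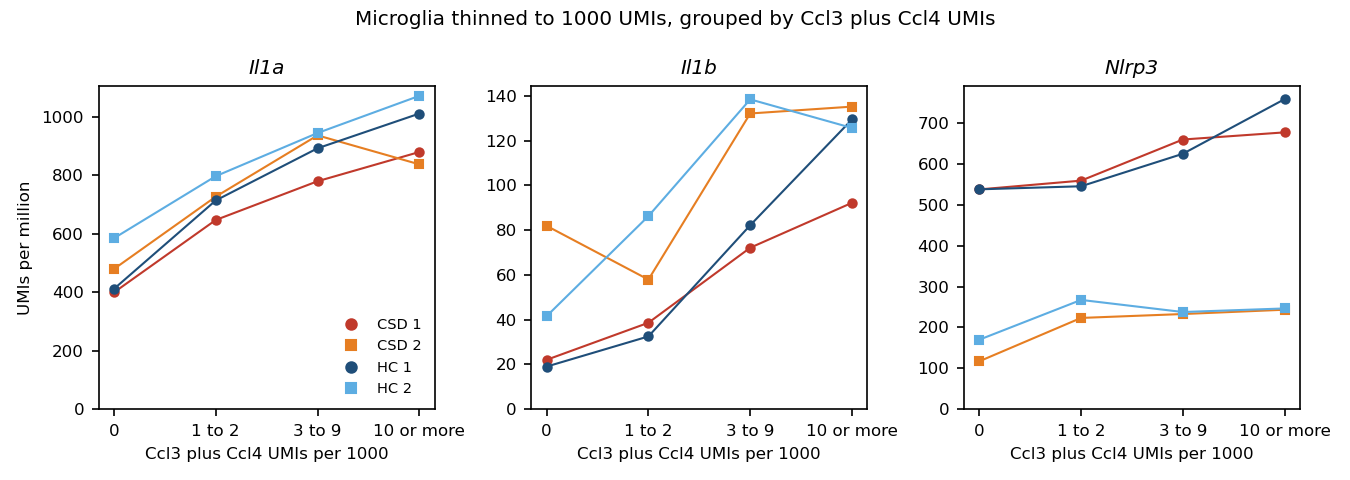
Level (CPM, y axis from 0) of Il1a, Il1b and Nlrp3 in microglia thinned to 1000 UMIs, grouped by the number of Ccl3 plus Ccl4 UMIs (x axis), with 1 line per library. Il1a goes from 399 to 585 CPM in cells with none to 838 to 1072 CPM in cells with 10 or more, and the Nlrp3 lines of the libraries numbered 1 lie above those numbered 2 in every bin.

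Il1b was found in a larger share of Il1a-positive than of Il1a-negative microglia, with next to no difference in CSD 2, and few cells held both. Among Il1a-positive microglia, 6.09% in CSD 1, 6.85% in HC 1 and 8.37% in HC 2 also held Il1b, against 2.16%, 3.17% and 4.11% of Il1a-negative microglia. In CSD 2 the shares were 5.05% and 4.89%, close to each other, with 11 double-positive cells. Both ligands were held by 2.36% of thinned microglia in CSD 1, 2.10% in CSD 2, 2.89% in HC 1 and 3.68% in HC 2. The shares of both CSD libraries were thus below those of both HC libraries, and this difference was not tested.

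Il18, the other caspase-1 substrate, had a wide distribution and was highest in glia. In astrocytes its level was 125 CPM in CSD 1, 217 in CSD 2, 224 in HC 1 and 150 in HC 2 (mean 179 ± 49.3, SD, n = 4). Leaving aside fenestrated EC, whose mean of 146 CPM came from 1 UMI, oligodendrocyte precursor cells followed at a mean of 137 CPM, from 18 UMIs, then oligodendrocytes at 82.3 CPM, from 8 UMIs, BAM at 72.1, fibroblasts at 53.4 from 11 UMIs, ependymal cells at 47.4 and microglia at 45.3 CPM. The ranges of the neighbours in this order overlapped. Microglial levels were close together, at 47.6 and 44.0 CPM in CSD against 44.2 and 45.6 CPM in HC (log2 fold change 0.07, SE 0.20, adjusted p = 1.0), and were higher than in EC by 2.20 on the log2 scale (SE 0.17, adjusted p = 5.1e-08). Free RNA, read in barcodes with at most 100 UMIs, held Il18 at 34.2 to 47.4 CPM, a level like that of microglia.

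Il18 was low in choroid plexus cells, at 7.44 to 12.8 CPM, and in capillary EC, at 7.66 CPM in CSD 1, 8.34 in CSD 2, 15.4 in HC 1 and 14.5 in HC 2. The capillary levels in CSD were below those in HC without overlap, as for 24.3% of the genes tested in capillary EC, and the difference did not pass the threshold (log2 fold change -0.83, SE 0.40, edgeR adjusted p = 0.58). In astrocytes the groups overlapped (log2 fold change -0.12, SE 0.49, adjusted p = 1.0).

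The antagonist Il1rn was scarcely found. The cells held 13 Il1rn UMIs in all, of which 5 were in 4304 microglia, 4 in neutrophils and 3 in Ccr2 monocytes. In microglia the libraries held 0, 4, 0 and 1 UMIs in the order CSD 1, CSD 2, HC 1 and HC 2, and a count of 0 allows up to 3 UMIs. Il1rn did not reach the count filter in any class, so no test was made.

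Il1r2, the decoy receptor, was a gene of the blood-borne myeloid cells. Neutrophils held 29 of its 63 UMIs and Ccr2 monocytes 8, against 9 UMIs in all microglia. In CSD 1, 10 of 12 neutrophils were positive with 21 UMIs (1955 CPM), in CSD 2 both were positive with 7 UMIs (1399 CPM), and in HC 2 1 of 2 was positive with 1 UMI (160 CPM). All of the neutrophil Il1b UMIs and all but 1 of the neutrophil Il1r2 UMIs came from the CSD libraries. These libraries also held 14 of the 16 neutrophils, so this is no comparison of CSD with HC. Neutrophils with both genes were not counted, and Il1r2 was not tested in any class.

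Il1r1, the signalling receptor, was the gene of the system that lay in vessels. EC held 353 of its 852 UMIs, mixed cells 200, choroid plexus cells 176, arterial smooth muscle cells (SMC) 55, pericytes 24 and microglia 18. Its level in microglia was lower than in EC by 4.53 on the log2 scale (SE 0.26, adjusted p = 2.12e-09). Per library, microglia held 1.90 and 1.07 CPM in CSD and 2.48 and 1.32 CPM in HC, below the 5.42 to 6.33 CPM of free RNA. In mural cells it was 26.4 to 76.7 CPM in pericytes and 30.04 to 38.0 CPM in SMC, and the ranges of these classes overlapped with those of capillary EC.

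Within the endothelium Il1r1 was highest in venous cells. In venous EC, 81 cells gated by venous markers such as Vwf, Slc38a5, Nr2f2, Ephb4 and Ackr1, the level was 609 CPM in CSD 1, 481 in CSD 2, 343 in HC 1 and 134 in HC 2. In capillary EC it was 54.5, 32.8, 23.6 and 23.3 CPM in the same order, and in arterial EC 14.3, 0, 5.58 and 0 CPM. All venous values lay above all capillary values. The venous level was higher than the capillary one by 3.31 on the log2 scale (SE 0.38, edgeR with library as a block, adjusted p = 8.29e-16), where 2.59% of 6822 genes were called, and by 3.14 to 3.58 in the alternatives. Venous EC were 1.68% of EC and held 14.4% of the endothelial Il1r1 UMIs.

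The same order appeared without the venous gate, in all EC grouped by how many of the 6 venous markers they held. With no venous marker the Il1r1 level was 12.04 CPM in CSD 1, 7.72 in CSD 2, 8.80 in HC 1 and 7.20 in HC 2. With 2 or more it was 243, 167, 125 and 88.9 CPM, and 26.2%, 23.7%, 23.3% and 9.48% of these cells were positive. Median depth differed along the bins too, from 821 to 1245 UMIs per cell with no marker to 1124 to 2149 with 2 or more, and CPM corrects for depth whereas the positive share does not. Likeness was read across the 10 classes with at least 10 cells in each library (with EC subclasses in place of all EC). The gene with the pattern most like Il1r1 was Ptgs2, cyclooxygenase 2, at a Pearson r of 0.92 of log2(CPM + 10). Rgs16 followed at 0.89 and Chp1 at 0.88, a description over classes that share libraries. The levels were means over CSD and HC libraries. In venous EC, Ptgs2 had 30 and 97 UMIs in CSD, from 2 and 10 cells, against 1 and 5 UMIs in HC. The part of venous EC in this r was not tested.

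**Figure D3:**
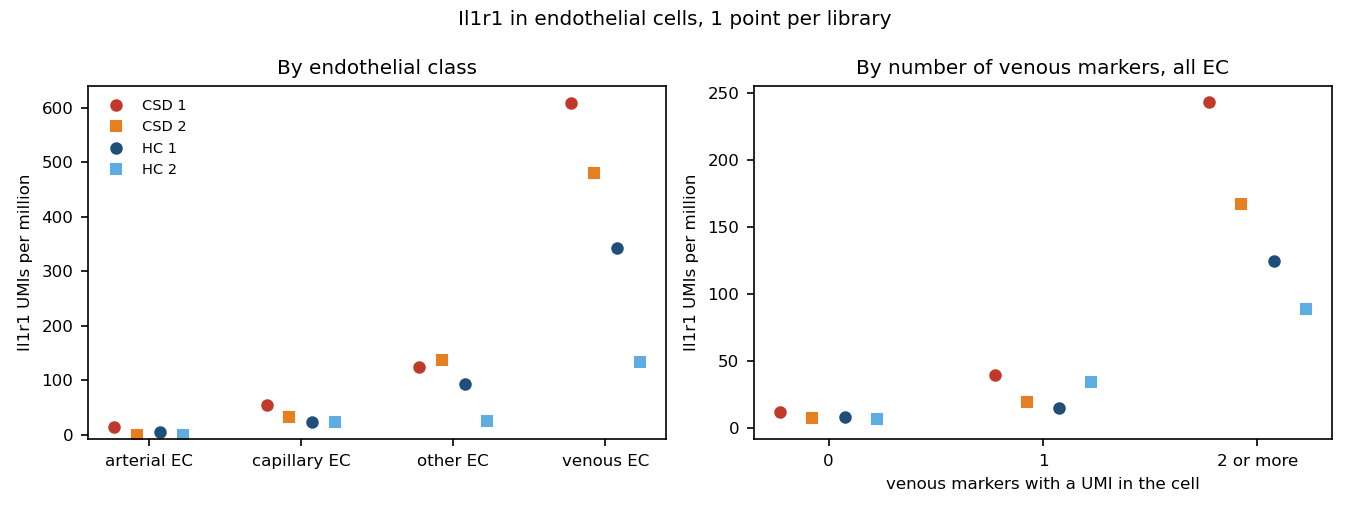
Il1r1 level (CPM, linear y axis) in endothelial cells, with 1 point per library. Left, by endothelial class, with venous EC at 134 to 609 CPM above capillary EC at 23.3 to 54.5 CPM and with EC of no subclass as other EC. Right, all EC by the number of venous markers with a UMI in the cell, at 7.20 to 12.04 CPM with none and 88.9 to 243 CPM with 2 or more.

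In EC as a whole both CSD libraries held more Il1r1 than both HC libraries, but the difference did not pass the threshold. The levels were 71.4 CPM in CSD 1 and 52.0 in CSD 2 against 42.1 in HC 1 and 23.7 in HC 2. The log2 fold change was 0.96 (SE 0.28, edgeR adjusted p = 0.31 over 9857 genes, n = 2 libraries per group), and CSD libraries lay above HC libraries in this way for 15% of the genes tested in EC. The share of positive cells was less separated. Of the EC, 57 of 1121 in CSD 1, 56 of 1119 in CSD 2, 46 of 898 in HC 1 and 34 of 1678 in HC 2 held an Il1r1 UMI, and after thinning 4.41%, 2.63%, 2.45% and 2.16% did (exact p = 0.333, the smallest possible). The call was made when CSD 1, CSD 2 or HC 1 was left out (adjusted p = 0.045, 0.000366 and 0.025), each of which leaves 1 library in an arm whose spread is then assumed to be that of the other arm, and adjusted p ranged from 0.000366 to 0.999 over the alternatives.

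The same held within the EC classes. Capillary EC gave a log2 fold change of 0.92 (SE 0.29, adjusted p = 0.24) and venous EC of 1.10 (SE 0.50, adjusted p = 0.39), with both CSD libraries above both HC libraries in each, as for 15.4% and 23.7% of the genes tested in those classes. The venous value rested on few UMIs, ranging from 0.59 without HC 2 to 2.02 without HC 1, with 0.31 at no more than 10% mitochondrial UMIs and 1.79 at 1000 UMIs per cell or more. In venous EC the positive cells were 4 of 16 in CSD 1, 8 of 23 in CSD 2, 9 of 21 in HC 1 and 3 of 21 in HC 2. These cells held 18, 20, 10 and 3 UMIs, so the levels were separated while the shares of positive cells overlapped. The HC libraries alone would not have taken Il1r1 past the count filter in venous EC. Its venous fold change is therefore a description. Outside the endothelium Il1r1 levels overlapped between the groups in SMC (log2 fold change 0.12, SE 0.38) and in choroid plexus cells (0.09, SE 0.29), with adjusted p = 1.0 in both.

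Il1rap, the accessory chain that IL-1 signalling needs, was low in the cells that held Il1r1 and highest in the oligodendrocyte lineage. Its level was 138, 257, 178 and 87.5 CPM in oligodendrocytes (CSD 1, CSD 2, HC 1, HC 2) from 23 UMIs in 25 cells, and 190, 87.8, 36.1 and 89.9 CPM in oligodendrocyte precursor cells from 18 UMIs in 48 cells. In EC it was 5.58, 8.83, 9.83 and 7.90 CPM, in microglia 6.03, 3.93, 4.13 and 3.95 CPM, and in choroid plexus cells 16.6, 11.6, 18.0 and 10.98 CPM. The groups overlapped in these 3 classes, and none of the differences passed the threshold (log2 fold change -0.23, SE 0.42 in EC, 0.34, SE 0.45 in microglia, and 0.07, SE 0.25 in choroid plexus cells). The level in EC lay near that of free RNA, at 5.69 to 10.3 CPM, and the difference between microglia and EC did not pass the threshold (log2 fold change -0.52, SE 0.30, adjusted p = 0.15). In venous EC, where Il1r1 was highest, the 4 libraries held 1 Il1rap UMI in all, in HC 1. Over the pooled UMIs this was 8.15 CPM, beside 8.06 CPM in capillary EC, so the single UMI does not show a lower level.

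Nlrp3, the sensor of the inflammasome, was a myeloid gene whose level in microglia followed the replicate number and not the condition. Microglia held 92.1% of its 4897 UMIs in cells, at a mean of 416 CPM. The mean was 413 CPM in 16 neutrophils, from 11 UMIs, and 154 CPM in 20 Ccr2 monocytes, from 14 UMIs. In microglia the level was 597 CPM in CSD 1 and 636 in HC 1, but 205 in CSD 2 and 224 in HC 2. This is a 2.91-fold difference between the CSD libraries and a 2.83-fold difference between the HC libraries. The thinned share of positive microglia was likewise 42.3% and 44.2% in the libraries numbered 1 and 16.8% and 19.0% in those numbered 2. Free RNA showed the same split, at 42.2 and 44.8 against 11.7 and 14.2 CPM.

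The comparison of CSD with HC for Nlrp3 therefore had a wide error (log2 fold change -0.08, SE 0.60, adjusted p = 1.0). Nlrp3 was 1 of 54 genes, 3.74% of the 1445 genes at 100 CPM or more in microglia and above 0 in each library, that were at least 2-fold higher in number 1 than in number 2 in both conditions, whereas 1 gene was at least 2-fold lower. Others among them were Neat1, a nuclear long non-coding RNA, at 928 and 1043 against 306 and 217 CPM, the splicing-related Ccnl1, at 2068 and 2073 against 715 and 697 CPM, and the haemoglobin gene Hbb-bs, at 436 and 2966 against 34.0 and 3.07 CPM. These genes were chosen after their values had been seen. The labels do not say what the numbers stand for, and the part of this split in the Nlrp3 level was not tested. In BAM, Nlrp3 was lower than in microglia (175 CPM in CSD 1, 54.9 in CSD 2, 181 in HC 1 and 209 in HC 2, log2 fold change -1.66, SE 0.41, adjusted p = 0.00095), a call that was lost without CSD 1 (adjusted p = 0.081) or HC 1 (adjusted p = 0.059).

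Casp1, which encodes the protease that matures IL-1β and IL-18, was also mainly microglial, with 80.6% of its 531 UMIs. Its level was 33.0 CPM in CSD 1 and 34.3 in CSD 2 against 54.1 in HC 1 and 42.5 in HC 2. The groups did not overlap, with CSD lower, as for 13.9% of the genes tested in microglia, and the difference did not pass the threshold (log2 fold change -0.48, SE 0.22, edgeR adjusted p = 1.0). The thinned positive shares had the same order, at 3.27% and 4.0% in CSD against 5.51% and 5.06% in HC (exact p = 0.333, the smallest possible). Over the alternatives, the CSD minus HC difference in share ranged from -2.02 to -0.213 percentage points. In BAM the level was 140, 110, 63.0 and 52.2 CPM from 23 UMIs, and its difference from microglia did not pass the threshold (log2 fold change 1.02, SE 0.44, adjusted p = 0.12). Casp1 was higher in microglia than in EC by 5.03 on the log2 scale (SE 0.25, adjusted p = 5.23e-10), as were Nlrp3 by 7.33 (SE 0.29) and Il1b by 6.08 (SE 0.31), with adjusted p of 9.39e-11 and 5.84e-10.

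**Figure D4:**
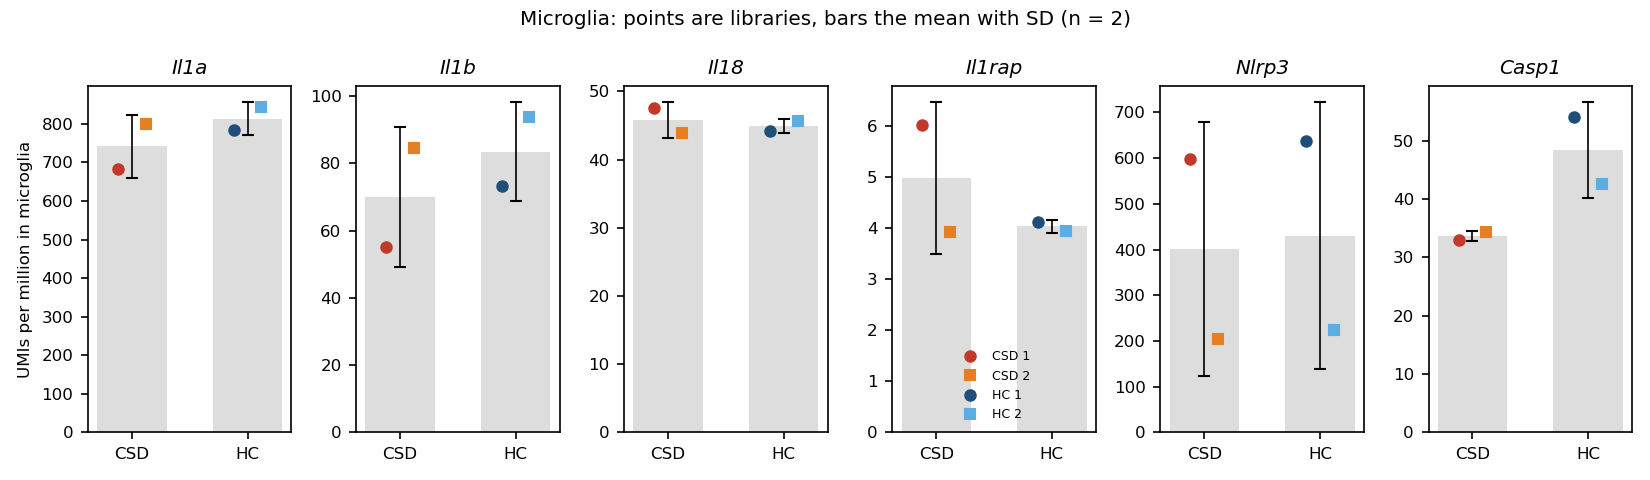
Level in microglia (CPM, each y axis from 0) of the 6 genes tested there, with points for libraries and bars for the mean with SD (n = 2 libraries per group). CSD and HC overlap for 5 genes, Casp1 is at 33.0 and 34.3 CPM in CSD against 54.1 and 42.5 CPM in HC, and Nlrp3 splits by replicate number in both groups.

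Across the 11 cell classes with at least 10 cells in each library, 18 pairs of gene and class passed the count filter, covering 7 of the 9 genes. None was called between CSD and HC by edgeR's quasi-likelihood test at an adjusted p of 0.05, where 0.179% of all 55865 tests were called. DESeq2 also called 0, but gave no adjusted p for 6306 genes in EC and 6007 in capillary EC. Il18 and Il1rap in EC were among those without one. Before adjustment, 2 pairs were at p under 0.05 by edgeR, Il1r1 in EC and in capillary EC, where 845 of 9857 and 816 of 9113 genes were under it. Both CSD libraries lay above both HC libraries in 3 pairs, all of Il1r1, and below them in 3, Il18 in EC and capillary EC and Casp1 in microglia. The Il1r1 pair of venous EC passed the count filter only with the CSD counts. EC as a whole contain the capillary, arterial and venous EC, so the EC pairs of a gene share UMIs and are not separate observations. In EC and capillary EC, 25.2% and 24.3% of the genes tested lay lower in CSD in this way. With 2 libraries per group these are differences that were not detectable here, and not evidence of equal levels. In microglia no gene was called of 9856 tested (0%), with 131 at p under 0.05 before adjustment and 2 called by DESeq2, and in EC 10 of 9857 (0.101%) were called, all higher in CSD.

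Few genes next to the 9 in the pathway passed the test. Of the other IL-1 family ligands, receptors and inhibitors, 8 tests in all classes gave 0 calls. Other inflammasome and pyroptosis genes gave 0 calls in 53 tests, with 17 of 19 genes tested in microglia and a median log2 fold change of -0.01 there, against 0.00 for all genes. The list of microglial chemokine and activation genes gave 0 calls in 23 tests. Of 71 tests of genes of IL-1 receptor signalling 1 passed, that of Irak2, a kinase of the IL-1 receptor complex, in capillary EC. Its level was 41.7 CPM in CSD 1 and 50.6 in CSD 2 against 21.1 in HC 1 and 22.5 in HC 2 (log2 fold change 1.14, SE 0.24, adjusted p = 0.049), where 0.615% of 9113 genes were called.

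A list of 15 genes that IL-1 is known to induce in endothelium, many of which other inflammatory signals induce too, held 7 genes called higher in CSD in venous EC and 6 in capillary EC. In venous EC 7 of the 15 genes of the list passed the filter and all 7 were called higher in CSD, where 2.68% of 448 genes were called, all of them higher in CSD (12 genes). A low-count gene passed the filter there only through the group in which it was high, so this count is not one over the list and supports nothing about it. In HC 1 and HC 2, Cxcl1 had 4 and 1 UMIs, Ptgs2 1 and 5, Cebpd 0 and 6, and Icam1 3 and 9. The limit therefore holds for the venous tests of single genes below too, whose values are descriptions. When HC 1 or HC 2 was left out, 0 were called. Earlier results of these data, with several of these genes among them, were known when the list was written, and so the list is no independent support.

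The chemokine gene Cxcl1 was at 2301 CPM in CSD 1, 4758 in CSD 2, 137 in HC 1 and 44.6 in HC 2 (log2 fold change 5.16, SE 0.63, adjusted p = 0.0023). All 68 Cxcl1 UMIs of CSD 1 came from 1 cell, and the 198 of CSD 2 from 7 cells. Lcn2, an acute-phase protein gene, had 251 UMIs in CSD and 1 in HC, a ratio of 182 with an exact 95% counting interval of 32.3 to 7212, and was held by 4 of 16 and 8 of 23 cells in CSD against 1 of 21 and 0 of 21 in HC. The values thus rest on few cells in CSD 1.

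Ptgs2 was at 1015 CPM in CSD 1, 2331 in CSD 2, 34.3 in HC 1 and 223 in HC 2 (log2 fold change 3.82, SE 0.68, adjusted p = 0.015). Its UMIs came from 2 of 16 cells in CSD 1, 10 of 23 in CSD 2, 1 of 21 in HC 1 and 3 of 21 in HC 2. Cebpd, a transcription factor gene of the acute-phase response, was at 1218 and 1826 CPM in CSD, listed at 0 in HC 1 and at 267 CPM in HC 2 (log2 fold change 3.66, SE 0.72, adjusted p = 0.021). Icam1, a leukocyte adhesion molecule, was at 1421 and 3340 CPM in CSD against 103 and 401 CPM in HC (log2 fold change 3.34, SE 0.62, adjusted p = 0.015). For each of these genes both CSD libraries lay above both HC libraries, as for 23.7% of the genes tested in venous EC, and CSD 2 was the highest. With 1 more marker required in the gate, 3 of the genes were called in venous EC.

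The venous gate itself held 16 cells in CSD 1, 23 in CSD 2, 21 in HC 1 and 21 in HC 2. Of its markers, Ackr1 had 4 and 99 UMIs in CSD and 0 and 0 in HC, so cells with at least 2 of Vwf, Slc38a5, Nr2f2 and Ephb4 were also read alone. In these 10, 14, 18 and 10 cells Icam1 was at 1624 and 3278 CPM in CSD against 113 and 490 in HC, and Il1r1 at 500, 391, 376 and 69.96 CPM. Immediate-early and dissociation genes summed to 15531 and 7785 CPM in venous EC of CSD against 6657 and 11635 CPM in HC, which overlap, and 0 of 11 tested there were called. All 7 Ccr2 monocyte markers were at 0 in venous EC of every library, as were the 9 neutrophil markers in all but HC 2.

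In capillary EC 6 of 10 tested genes of the list were called higher in CSD (0.582% of all genes tested were), with a median log2 fold change of 0.86 against 0.00 over all genes. Lcn2 is among the 6 but passed the filter only through CSD, where it was high, so its call is a description. Low-count genes were tested in venous EC only where they were high in CSD, so the fold changes there are not set against those in capillary EC. Vcam1, an adhesion molecule, was at 158 and 111 CPM in CSD against 61.0 and 35.6 in HC (log2 fold change 1.54, SE 0.25, adjusted p = 0.013), Cebpd at 303 and 438 against 119 and 180 (1.37, SE 0.21, adjusted p = 0.012), and Cxcl1 at 87.7 and 131 against 44.7 and 48.7 CPM (1.29, SE 0.21, adjusted p = 0.013). Nfkbiz, an NF-κB regulator, was at 111 and 113 against 69.1 and 59.6 CPM (0.86, SE 0.18, adjusted p = 0.046), and Lcn2 had 42 UMIs in CSD against 3 in HC, a ratio of 12.8 (exact 95% counting interval 4.08 to 64.5). Whether the change differed between the classes was not tested.

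Of the immediate-early and dissociation genes, 2 of 14 were called higher in capillary EC of CSD, Fosb and Hspa1a (adjusted p = 0.044 and 0.021). All 14 had a positive log2 fold change, with a median of 0.66, and the groups overlapped for some, such as Jun, Egr1 and Atf3. In choroid plexus cells 2 of 14 were called, the near-identical heat shock genes Hspa1a and Hspa1b, whose reads may be split between the copies (0.12% of the genes tested there were called). In EC as a whole the list summed to 15595 and 19346 CPM in CSD against 12102 and 12821 CPM in HC, and its part in the higher levels of IL-1 responsive genes was not tested. With at least 1000 UMIs per cell or at most 10% mitochondrial UMIs, 2 genes of the IL-1 responsive list were called in capillary EC in place of 6. In EC as a whole 2 of 11 passed, Cxcl1 (173 and 236 against 72.1 and 54.7 CPM, log2 fold change 1.75, SE 0.20, adjusted p = 0.021) and Lcn2 (69.7 and 116 against 2.73 and 1.69 CPM, log2 fold change 5.41, SE 0.39, adjusted p = 0.0015). Here too Lcn2 passed the filter only through CSD, so its value is a description. In pericytes 1 of 5 passed, Cebpd, at 869 and 854 CPM in CSD against 258 and 272 in HC (log2 fold change 1.73, SE 0.24, adjusted p = 0.032), where 0.0418% of genes were called. In microglia 0 of 10 were called. In arterial EC 0 of 6 were called, with 4 positive log2 fold changes and a median of 0.51. The others there were Vcam1 (-0.49, SE 0.37) and Cxcl1 (-0.04, SE 0.52). SMC and choroid plexus cells gave 0 of 6 each, astrocytes 0 of 4, ependymal cells 0 of 3 and T cells 0 of 2.

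**Figure D5:**
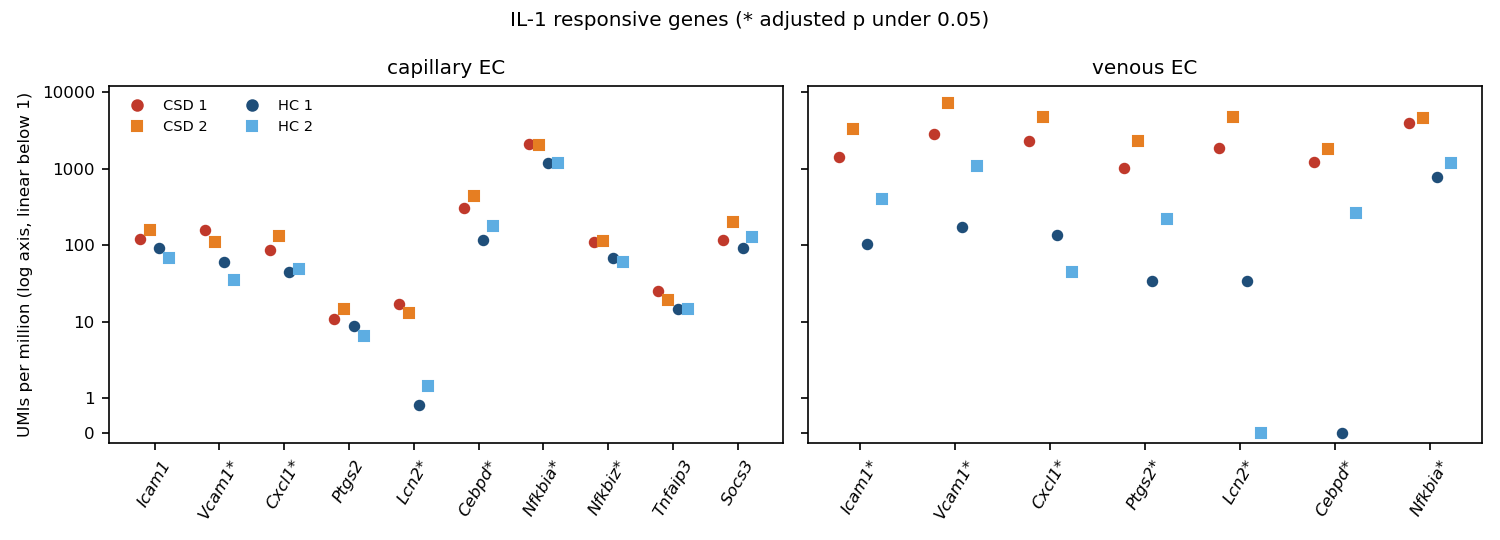
Level (CPM, log axis that is linear below 1) of the genes of the IL-1 responsive list that passed the count filter in capillary EC (left, 10 genes) and venous EC (right, 7 genes), with 1 point per library and a star at an adjusted p under 0.05. In venous EC both CSD libraries lie above both HC libraries for all 7 genes, as for 23.7% of the 448 genes tested there. Low-count genes passed the filter in venous EC only through the group in which they were high, so the 7 do not stand for the list. The same limit holds for Lcn2 in capillary EC.

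In each library, EC with Il1r1 RNA had a higher summed level of the IL-1 responsive list than EC without it. No other genes were summed in these cells for comparison, so this is a description and no result about the list. Outside the venous gate, the summed level of the 15 genes in Il1r1-positive EC was 8667 CPM in CSD 1, 11410 in CSD 2, 5999 in HC 1 and 3996 in HC 2. In Il1r1-negative EC it was 2658, 2686, 1599 and 1727 CPM. The positive cells were 53, 48, 37 and 31 in number, and they were deeper, with medians of 1401 to 3051 UMIs against 857 to 1430. Nfkbia alone gave 3800, 4873, 2656 and 2236 CPM of the sum in positive cells. Cells outside the gate include many with venous markers. In the same order, 122, 173, 146 and 116 EC held 2 or more, against 16, 23, 21 and 21 in the gate. The paper lists Icam1 and Vcam1 as signature genes of venous EC, and the part of venous identity in these levels was not tested.

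Of the 15 genes, 8 had a higher level in positive than in negative cells in all 4 libraries, among them Icam1 and Vcam1. Lcn2 and Tnfaip3 were higher in 3 libraries, and in HC 2 the positive cells held 0 and 1 UMIs of them. Sele, Selp, Ccl2 and Csf3 were higher in 1 library and Il6 in 0. How many of all genes had this order was not counted, so the 8 are no result about the list. Icam1 was at 939, 1900, 753 and 404 CPM in positive cells (CSD 1, CSD 2, HC 1, HC 2) against 67.7, 63.5, 60.9 and 58.9 CPM in negative cells. Vcam1 was at 1478, 1471, 858 and 260 CPM against 76.0, 34.8, 43.3 and 56.5 CPM. Lcn2 differed from these in being present in positive cells of CSD, at 288 and 145 CPM, with 3 and 0 UMIs in positive cells of HC. Ccl2 was at 0 in the positive cells of CSD 1, CSD 2 and HC 2. The cells were compared within a library, where they are not replicates, and no test was run.

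Across classes, the genes most like the microglial members were other myeloid genes, but microglia were the only myeloid class among those compared. BAM, neutrophils and Ccr2 monocytes had too few cells to be included. A gene found mainly in microglia therefore ranks high by construction, and the likeness does not extend to other myeloid classes. Over the same 10 classes they were Mpeg1, Ncf1 and Cd33 for Il1a, Cd180, Ccl6 and Btk for Il1b, Fcgr1 and P2ry13 for Nlrp3 (P2ry13 is one of the gate's microglial markers), and Rassf5, Bin2 and Lpxn for Casp1, all at a Pearson r of at least 0.99. For Il18 they were Sema4b, Eva1a and Eif1b (0.93 to 0.94), and for Il1rap Hddc2, Clcn3 and Gramd1b (0.82 to 0.88).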

How the data were processed

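Single-cell RNA of 4 libraries, 2 of CSD and 2 of HC mice with 4 mice pooled in each, had been made with the Chromium 3′ v3.1 chemistry. The authors deposited unnormalized UMI counts for each gene in each barcode, which Cell Ranger had produced with the mouse genome GRCm38 (mm10), for all barcodes and without cell calling. Sources differ on the Cell Ranger version (4.0 in the submitters' processing notes, 6.0 in the study's methods, software version 3.1.0 in the matrix headers), and only per-gene counts were used here. Counting with introns is not given in the sources used here.

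Cells had at least 500 UMIs, 250 genes and at most 25% mitochondrial UMIs. A class needed at least 3 distinct markers, a second class reaching 0.6 of the best made a cell mixed, and EC subclasses needed at least 2 markers and 1.25 times the next subclass. Scrublet (scanpy 1.11.5) marked 0.0981% to 1.48% of cells, under 0.5% in both CSD libraries, where it did not work, so doublets were handled by the mixed class and removing marked cells was an alternative. Libraries held 27297599 to 30361474 UMIs, and with few UMIs per gene the precision of the sparse members is limited by counting. Exact (Clopper-Pearson) 95% intervals and the limit of 3 UMIs for a count of 0 cover counting error only.

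UMIs were summed per library and class. CSD was compared with HC in classes with at least 10 cells in each library, while the contrast of border-associated macrophages with microglia kept a sum of 5 cells in CSD 2. Sums were tested with edgeR 4.0.16 (TMM, filterByExpr, quasi-likelihood test, Benjamini-Hochberg adjusted p under 0.05 over all genes of a class) in R 4.3.3, between classes with the library as a block. DESeq2 1.42.0 was an alternative. Library pools are the replicates, and p-values measure the spread between 2 pools per group. Shares of positive cells were compared by exact two-sided permutation tests after thinning. Code was tested on simulated data.

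The named genes were the 9 members, the 3 genes most like each member across classes, and, from the pathway lists, the genes past the threshold or the 5 of them with the largest fold change. Some genes that these rules or the marker lists hold are not reported here. For the most alike genes, log2(CPM + 10) was correlated over genes of at least 50 CPM in 1 class. The 9 members and all lists were chosen with earlier results of these data known. Promoter sequences are RefSeq's, on GRCm38.p6, and all 9 members matched.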

Additional observations from a re-analysis of the deposited data

How the results depend on the processing

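Of 441 recomputed values for 43 results, 375 kept their direction and their side of the threshold or, for a count, stayed within 1.5 times. The cause was not tested for the others unless the construction shows it. Of the 9 genes, 0 were called between CSD and HC in any class, 1 without the filter on low counts, 1 with the replicate block and 0 to 2 when a library was left out, and the calls were of Il1r1 in EC or capillary EC. In microglia 0 genes were called, 2 by DESeq2, 26 without the filter, 22 with the block and 2 to 32 without 1 library. In EC 10 were called, 60 by DESeq2 (with 6306 adjusted p not given), 4 without the filter, 52 with the block, 17 with at least 1000 UMIs per cell and 15 to 570 without 1 library (570 without CSD 1, 198 without CSD 2, 48 without HC 1 and 15 without HC 2).

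Directions turned mostly where differences were near 0. The Il1rap log2 fold change in EC was 0.048 with at least 1000 UMIs, 0.16 with at most 10% mitochondrial UMIs and -0.60 to 0.028 without 1 library, and in capillary EC -0.69 to 0.061 without 1 library. In choroid plexus cells Il18 was at 0.27 with at most 10% mitochondrial UMIs, 0.041 with a complexity of at least 0.8 and -0.63 to 0.051 without 1 library, and Il1r1 at -0.021 with the block, -0.032 with 1 more marker, -0.018 with at most 10% mitochondrial UMIs and -0.16 to 0.35 without 1 library. Il1rap there was at -0.069 with the block and -0.25 to 0.43 without 1 library. Il18 in astrocytes was at 0.059 without the filter and -0.55 to 0.22 without 1 library, and Il1r1 in SMC at -0.11 to 0.24. In microglia, leaving out 1 library gave -0.29 to 0.10 for Il1a, -0.64 to 0.14 for Il1b and -0.93 to 0.81 for Nlrp3, whose libraries split by number. Without thinning, the CSD minus HC share of positive microglia was 0.900 percentage points for Il1b and 6.27 for Nlrp3, where CSD 2 is deepest, and the Nlrp3 share ranged from -14.9 to 10.6 points without 1 library. At 500 UMIs per cell the Il1r1 share difference was -0.0911 points in EC and -9.19 points in venous EC. Il1b was called lower in BAM than in microglia with RLE normalization, without the filter and without HC 2, and Il1r1 was called in capillary EC without the filter and without CSD 2.

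Alternatives for the IL-1 responsive list were chosen after seeing the data. In venous EC 3 genes were called with 1 more marker and 0 to 7 without 1 library, and in capillary EC 2 with at least 1000 UMIs, 2 with at most 10% mitochondrial UMIs and 3 to 8 without 1 library (3 without HC 1).

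Replicate numbers are shared by name only, since the labels give no common batch. The correlation of deviations between same-numbered libraries was 0.415 in microglia and 0.00794 to 0.197 in the other classes. With this replicate block, the Il1r1 log2 fold change in EC was 0.99 (edgeR adjusted p = 0.049), and the block changed no other member's call. Depth limits Il1rn and Il1r2, which could not be tested, and 81 venous cells limit every venous value.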
